A study of Mus musculus with 2 samples.

Results

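The regions described here are the promoters of mouse genes named Zfp followed by a number (Zfp1 and so on), a naming series given to zinc finger proteins. All 360 protein-coding autosomal genes with such a symbol in the RefSeq table of GRCm38 were taken, out of 20665 protein-coding autosomal genes. The gene table carries no strand, so each gene was counted in a window of 1001 bp centred on whichever of its ends held more insertions, 500 bp to each side. A gene with another member of the set within 100 kb was called clustered, which gave 208 clustered and 152 isolated genes. The assay was ATAC-seq: the transposase Tn5 cuts sequencing adapters into open chromatin, and a window with more such insertions is more accessible. There was 1 library from an adult Gabra3 knockout mouse and 1 from an adult wild-type littermate, both of the C57BL/6 strain and both from flash-frozen neural retina (20000 nuclei, 75 bp single-end reads). Gabra3 encodes a subunit (alpha 3) of GABA-A receptors, the chloride channels of inhibitory synapses, and the series asks how its loss changes DNA accessibility in the retina. How the knockout allele was made is not given in the sources used here. With 1 library per genotype no test between genotypes is possible. Each ratio compares those libraries, has no replicate check, and carries an exact 95% interval (Clopper-Pearson) that covers counting error only.

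Most mouse Zfp genes encode proteins with arrays of C2H2 zinc fingers, in which each finger folds around a zinc ion and reads a few bases of DNA. The largest subfamily joins the fingers to a KRAB domain, which recruits the corepressor TRIM28 and through it the machinery of histone H3 lysine 9 methylation, and many of its members silence retroelements. KRAB zinc finger genes multiplied by tandem duplication, so many lie in arrays of related copies. The symbol alone does not say which subfamily a gene is in: Zfp36, for example, carries fingers of the CCCH type and binds messenger RNA. Zinc finger genes with other symbols, such as Zbtb, Zscan, Zkscan and many predicted genes, are outside the set, so a gene called isolated can still have zinc finger neighbours.

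The knockout library gave 7646373 distinct, well placed insertions and the wild-type library 7635799. Of the autosomal insertions, 18.8% (knockout) and 19.6% (wild type) fell into the open regions called on both libraries together. Ratios are given as log2, knockout over wild type, with a positive value meaning higher in the knockout library. They are scaled to those counts, and scaling to all autosomal insertions would lower every log2 ratio by 0.06. Gabra3 itself, on chromosome X (72432676 to 72656919), held 121 knockout and 126 wild-type insertions over its whole body and no open region. Its log2 ratio was -0.06 (-0.43 to 0.31) with all autosomal insertions as scale, an interval that does not reach the loss of a whole gene body; a smaller lesion was not checked, since the allele is not given. Of 8 rod photoreceptor marker promoters 7 were open, with 726 knockout and 802 wild-type insertions in sum. The other neural retina lists went both ways: cone markers had 58 and 33, bipolar 138 and 120, ganglion cell 88 and 55, amacrine 55 and 66, and Müller glia 138 and 154. Whether the mix of cell types differed, and its part in the ratios given here, was not tested. The promoters of 3 retinal pigment epithelium markers (12 and 12), 2 lens markers (14 and 15), 3 microglia markers (14 and 16) and 2 vascular markers (11 and 7) held few insertions, and none of these 10 was open.

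The 250 bases before the RefSeq transcription start of the most accessible clustered genes (Zfp78 and Zfp869) and isolated genes (Zfp143 and Zfp277) show what an open Zfp promoter looks like. They are printed 5′ to 3′ on the gene's own strand, from RefSeq for GRCm38.p6. Capitals mark matches, on either strand, to the 10 sets of letters listed with the motif results.
Zfp78 (chr7:6363058-6363307, + strand): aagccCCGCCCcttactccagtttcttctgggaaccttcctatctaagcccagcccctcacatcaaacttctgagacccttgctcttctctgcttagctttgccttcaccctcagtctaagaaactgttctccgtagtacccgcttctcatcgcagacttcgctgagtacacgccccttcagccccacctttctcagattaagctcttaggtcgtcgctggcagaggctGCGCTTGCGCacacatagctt
Zfp869 (chr8:69716903-69717152, - strand): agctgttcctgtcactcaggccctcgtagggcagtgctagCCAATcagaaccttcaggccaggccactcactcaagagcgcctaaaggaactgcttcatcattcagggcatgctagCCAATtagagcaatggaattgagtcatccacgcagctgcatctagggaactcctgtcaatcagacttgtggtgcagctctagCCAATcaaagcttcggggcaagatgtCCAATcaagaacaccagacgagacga
Zfp143 (chr7:110061452-110061701, + strand): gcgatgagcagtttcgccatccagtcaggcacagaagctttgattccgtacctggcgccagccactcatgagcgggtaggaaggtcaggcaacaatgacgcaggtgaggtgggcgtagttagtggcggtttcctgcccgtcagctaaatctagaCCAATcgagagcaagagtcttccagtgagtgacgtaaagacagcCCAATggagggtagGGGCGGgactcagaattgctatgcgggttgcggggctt
Zfp277 (chr12:40445791-40446040, - strand): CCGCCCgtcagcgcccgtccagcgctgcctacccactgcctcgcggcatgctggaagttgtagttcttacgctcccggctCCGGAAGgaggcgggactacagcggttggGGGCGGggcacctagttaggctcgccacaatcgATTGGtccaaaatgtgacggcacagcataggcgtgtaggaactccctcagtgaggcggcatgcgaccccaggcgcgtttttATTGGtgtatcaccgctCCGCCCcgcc
Zfp869 held the CCAAT letters 4 times and no GC box. Zfp277 held GC boxes, an ETS match and CCAAT letters in a stretch with 64.0% G and C, against 53.6% in Zfp78, 52.0% in Zfp869 and 56.4% in Zfp143. These stretches held 10 CpG dinucleotides in Zfp78, 6 in Zfp869, 14 in Zfp143 and 24 in Zfp277, so a high count of CpG was not shared by all 4.

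Zfp promoters were, for the most part, open in both retinas. They held a median of 45 knockout and 48 wild-type insertions, against 15 and 15 for all 20665 autosomal protein-coding promoters. In total they took 19411 knockout and 20269 wild-type insertions, which is 0.260% (0.256 to 0.263) and 0.272% (0.268 to 0.275) of the autosomal insertions of each library. An open region overlapped 257 of the 360 windows (71.4%) with regions called on knockout insertions alone and 259 (71.9%) with regions called on wild-type insertions alone, where the shares over all promoters were 47.7% and 48.1%. Zfp promoters lay in the middle of the range more often than promoters at large. Of the 360, 166 (46.1%) held at least 100 insertions summed over both libraries and 112 (31.1%) held 20 to 99, against 35.6% and 20.3% of all promoters. At the upper end, 20 (5.56%) held at least 300, against 8.20% of all promoters. Members differed widely among themselves: the quartiles lay at 11 and 77.3 insertions for knockout and at 11 and 82.3 for wild type.

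**Figure D1:**
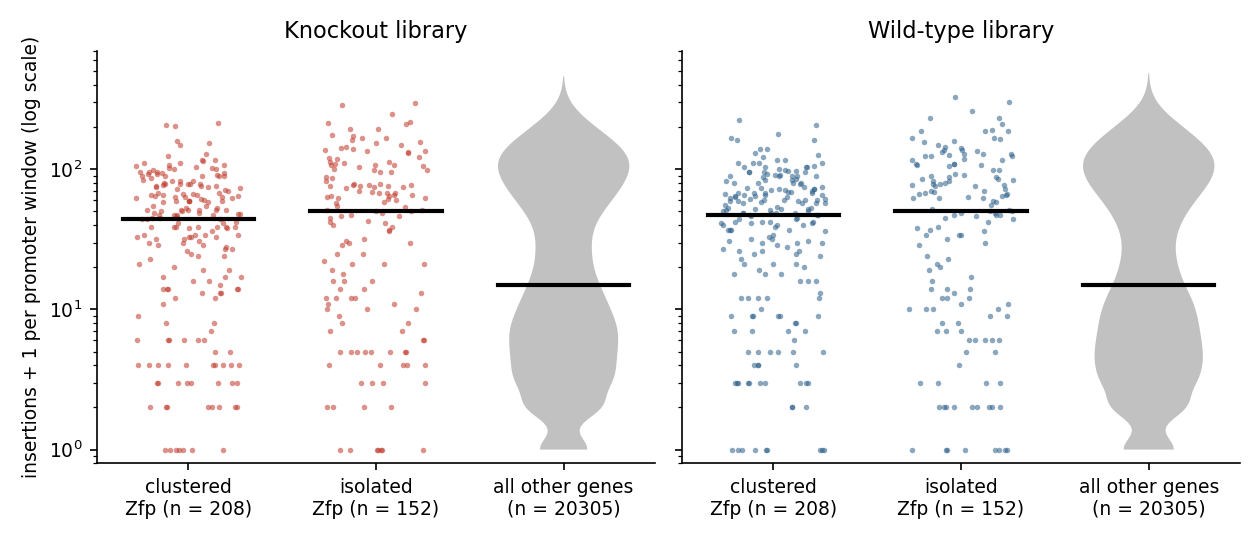
Insertions at each Zfp promoter in the knockout library (left) and the wild-type library (right), on a log scale with 1 added, for clustered and isolated genes; each point is a promoter, bars are medians, and the grey shape shows the distribution of all other genes. Both Zfp classes have medians of 43 to 49 insertions, against 14 for all other genes, and clustered genes have fewer promoters at the very top of the scale (2.88% with at least 300 insertions summed) than isolated genes (9.21%).

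The strongest of them was Zfp143, whose product activates small nuclear RNA genes and many protein-coding promoters, with 295 knockout and 324 wild-type insertions. It stood at percentile 99.9 of all promoters. Zfp654, with an end of Cggbp1 within 1 kb of its counted end, followed with 284 and 300. Zfp277, with an end of Dock4 within 1 kb, had 246 and 260, and Zfp706 had 217 and 231. Zfp142, with an end of Bcs1l within 1 kb, had 193 and 231. Zfp687, a partner of the chromatin reader ZMYND8, had 213 and 210. Only Zfp78 (211 and 222) and Zfp869 (203 and 207) of the 8 strongest were clustered genes. The widest open region at a Zfp promoter covered 1950 bp at Zfp91, the gene of an atypical zinc finger ubiquitin ligase, with 152 knockout and 162 wild-type insertions in the counted window. Across all members with an open region the median width was 750 bp, against 800 bp over all promoters.

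Clustered promoters were open slightly more often than isolated ones, and isolated ones reached higher counts. An open region called on both libraries together overlapped 163 of 208 clustered windows (78.4%) and 107 of 152 isolated windows (70.4%). Over all 20665 promoters it was 10742 (52.0%). Clustered windows had a median of 43 knockout and 46 wild-type insertions, and isolated windows 49 and 49. At least 300 insertions summed were found at 6 clustered (2.88%) and 14 isolated promoters (9.21%). The median of the summed counts was 90 at clustered and 100 at isolated promoters, a ratio of 0.900. Genes of a cluster share ancestry and sequence and are not independent of each other, so no test was made. Around the 100 kb limit the counts were mixed. Just inside it were Zfp932 and Zfp605, 97.8 kb apart, with 35 and 66 knockout insertions against 48 and 57 wild-type insertions. Just outside it were Zfp715 and Zfp936, 104 kb apart, with 69 and 3 knockout insertions against 87 and 1 wild-type insertions.

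Insertions peaked just before the annotated start in both classes. For 239 members the counted gene end lay within 500 bp of a RefSeq start, which also gives the direction of transcription. At the 147 clustered genes among them the highest 50 bp bin was the one directly before the start, with 137 knockout and 147 wild-type insertions per kb per promoter. At the 92 isolated genes the highest bin of the knockout library lay 100 to 50 bp before the start, with 170, and that of the wild-type library directly before it, with 173. Relative to the flanks 750 to 1000 bp away, the clustered peak stood 20.4 (knockout) and 20.3 times (wild type) higher, the isolated peak 14.9 and 14.5 times, and the peak of all other genes 12.5 and 12.8 times. Upstream flanks of clustered genes held 7.70 knockout and 6.99 wild-type insertions per kb, and those of isolated genes 9.17 and 9.26. Downstream flanks held 5.69 and 7.48 at clustered genes, against 13.7 and 14.6 at isolated genes.

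**Figure D2:**
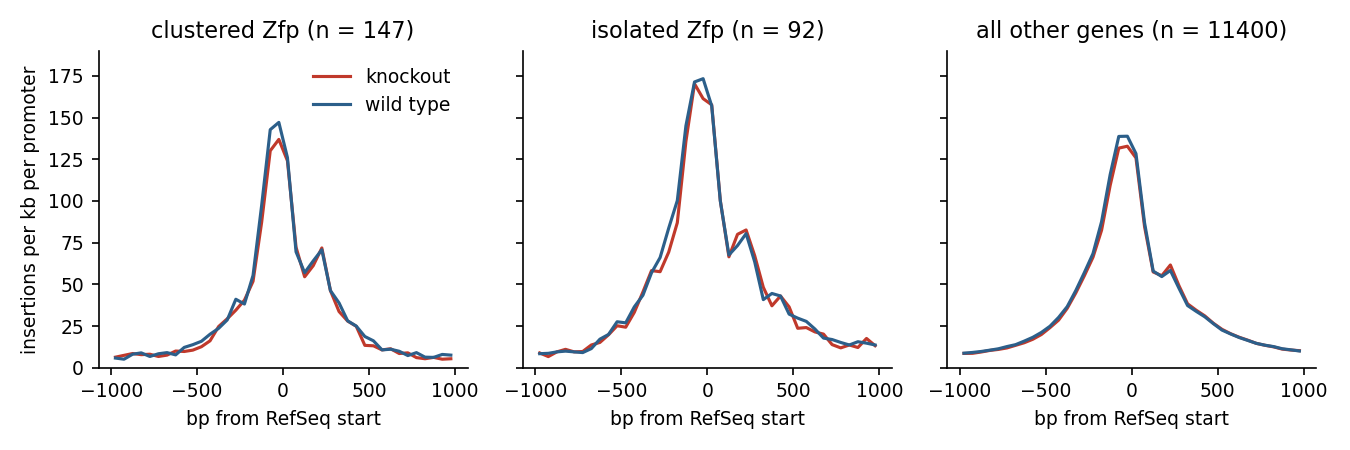
Mean insertions per kb per promoter in 50 bp bins from 1000 bp before to 1000 bp after the RefSeq start, for clustered Zfp genes, isolated Zfp genes and all other genes; red is the knockout library and blue the wild-type library. Both libraries peak within 100 bp before the start in each group, and the clustered genes have the lowest flanks.

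The remaining 82 members (22.8%) held fewer than 20 insertions, against 44.1% of all promoters. Of these, 37 held at least 20 at another annotated start or once repeated sequence was counted. In 30 of the 82, RefSeq lists a start elsewhere in the gene, from 0.268 to 33.5 kb from the counted end, with at least 20 insertions around it, and 12 of those starts held at least 100. Over all promoters, 956 of the 9106 under 20 had a RefSeq start with at least 20, and 460 had one with at least 100. Zfp787 had 3 knockout and 8 wild-type insertions at its gene end but 164 and 165 at a RefSeq start 24.5 kb away. Zfp428 had 5 and 6 at its end, against 129 and 126 at a start 2.54 kb away. Zfp708, a KRAB gene that acts on retroelements, had 2 and 3, against 53 and 59 at a start 16.4 kb away. With windows set on RefSeq starts instead, for the 301 members listed there, the medians were 52 knockout and 55 wild-type insertions, and 41 (13.6%) held fewer than 20. All 16457 listed autosomal genes had medians of 22 and 23 by that count, and 40.3% of them held fewer than 20. At RefSeq starts the 180 clustered Zfp genes had medians of 46.5 and 50, and the 121 isolated Zfp genes 65 and 68. The ratio of clustered to isolated medians of the summed counts was then 0.729. At their gene ends the same 301 genes gave 0.854, a comparison added after seeing the data.

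Another 7 of the 82 held at least 20 insertions only when reads of low mapping quality were counted. Over all promoters, 103 of the 9106 under 20 reached 20 when such reads were counted. Zfp97 and Zfp433 had 0 well placed insertions in both libraries, yet 76 and 71 knockout insertions and 85 and 80 wild-type insertions without the quality minimum. The other 5, Zfp965, Zfp967, Zfp968, Zfp970 and Zfp973, all lie on chromosome 2. In all, 11 members held no well placed insertion in either library. Those whose counted end lay within 500 bp of a RefSeq start were taken in genome order. The first were Zfp968 (clustered) and Zfp967 (isolated), and the 250 bases before their starts show the repetition.
Zfp968 (chr2:175372186-175372435, + strand): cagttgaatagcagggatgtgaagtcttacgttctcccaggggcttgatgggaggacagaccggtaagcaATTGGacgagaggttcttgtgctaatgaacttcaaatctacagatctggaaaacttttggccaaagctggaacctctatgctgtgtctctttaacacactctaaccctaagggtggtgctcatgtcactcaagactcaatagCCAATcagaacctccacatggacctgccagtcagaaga
Zfp967 (chr2:176520754-176521003, + strand): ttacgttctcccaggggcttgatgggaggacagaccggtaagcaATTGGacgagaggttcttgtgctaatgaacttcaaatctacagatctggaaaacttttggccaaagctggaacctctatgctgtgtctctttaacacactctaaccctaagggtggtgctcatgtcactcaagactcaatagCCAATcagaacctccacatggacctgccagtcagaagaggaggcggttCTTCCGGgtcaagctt
They share an unbroken stretch of 224 bases, longer than a 75 bp read, so a read from this stretch cannot be assigned to a single copy. For these genes a count of 0 says nothing about accessibility. At Zfp promoters with at least 100 insertions 0.184% of insertions were lost to the quality minimum, and at those under 20 it was 51.9%, against 11.2% for all promoters under 20. The remaining 45 members stayed under 20 by each count that could be made. For 14 of them, not listed in the RefSeq promoter table, no RefSeq start could be counted, so a higher count elsewhere in the gene is not excluded. Of the 45, 16 lie on chromosome 4.

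Zfp genes are spread unevenly over the chromosomes. Chromosome 7 carries 90 of the 360, 73 of them clustered, followed by chromosome 17 with 41, chromosome 13 with 32 and chromosome 4 with 27. Their counts at gene ends differed by chromosome more than between libraries. On chromosome 7 the median was 52 knockout and 59 wild-type insertions, where all genes of that chromosome had 7 and 7. On chromosome 8 it was 65 and 75. On chromosome 4 it was 4 and 4, with 16 of 27 members under 20 insertions, and on chromosome 2 it was 13 and 10, with 11 of 24 under 20. Counted at listed RefSeq starts or with any mapping quality, the 16 on chromosome 4 stayed under 20, but only 4 of the 11 on chromosome 2 did. The low median of chromosome 2 thus rests in part on the counted end and on repeated sequence.

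Within clusters, counts at the gene ends ranged widely between members, and several low counts were not low at a RefSeq start. Joined by gaps of at most 100 kb, the 208 clustered genes formed 50 clusters, 21 of them pairs and 15 with at least 5 members. The largest, 15 genes over 401 kb of chromosome 7 (29768552 to 30169775), was open almost throughout: 14 of 15 windows held an open region and 12 held at least 100 insertions. Its strongest member was Zfp566, with 158 knockout and 161 wild-type insertions. Zfp568, which represses a placental transcript of Igf2, had 101 and 102. The member with fewest, Zfp790, had 2 and 2 at its gene end but 76 and 78 at a RefSeq start 4.64 kb away. The cluster of 5 genes on chromosome 8 (69610654 to 69774911) had the highest level, with every member over 100 insertions summed over both libraries. There Zfp869 had 203 and 207, and the lowest, Zfp964, had 95 and 89. The 14-gene cluster on chromosome 13 (67038594 to 67553152) had a median of 31.5 and 24.5 at gene ends, and its strongest member, Zfp87, had 63 and 71. Its 5 members under 20 insertions, Zfp708, Zfp759, Zfp458, Zfp595 and Zfp459, all held at least 20 at a RefSeq start. Of these, Zfp595 had 1 and 2 at its end and 43 and 37 at a start. At gene ends, the 13-gene cluster on chromosome 17 (21383707 to 21994366) ran from Zfp52, with 1 and 2, to Zfp53, with 63 and 55. Zfp52 had 8 and 15 at a RefSeq start 27.8 kb away, and 16.3% of the insertions in the windows of that cluster had low mapping quality. The 9-gene cluster on chromosome 4 (147124882 to 147849126) was the lowest of the 15 with at least 5 members. Its strongest member, Zfp978, had 22 and 17 insertions, 6 of the 9 were under 20, and 21.5% of the insertions in its windows had low mapping quality, against 0.0464% in the largest cluster. Counted with any mapping quality, its windows held 80 knockout and 64 wild-type insertions, against 61 and 52 with the minimum. Zfp985, with 4 and 4, and Zfp534, with 2 and 1, lost no insertion to the minimum, and Zfp979 had 0 and 0 with any quality.

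**Figure D3:**
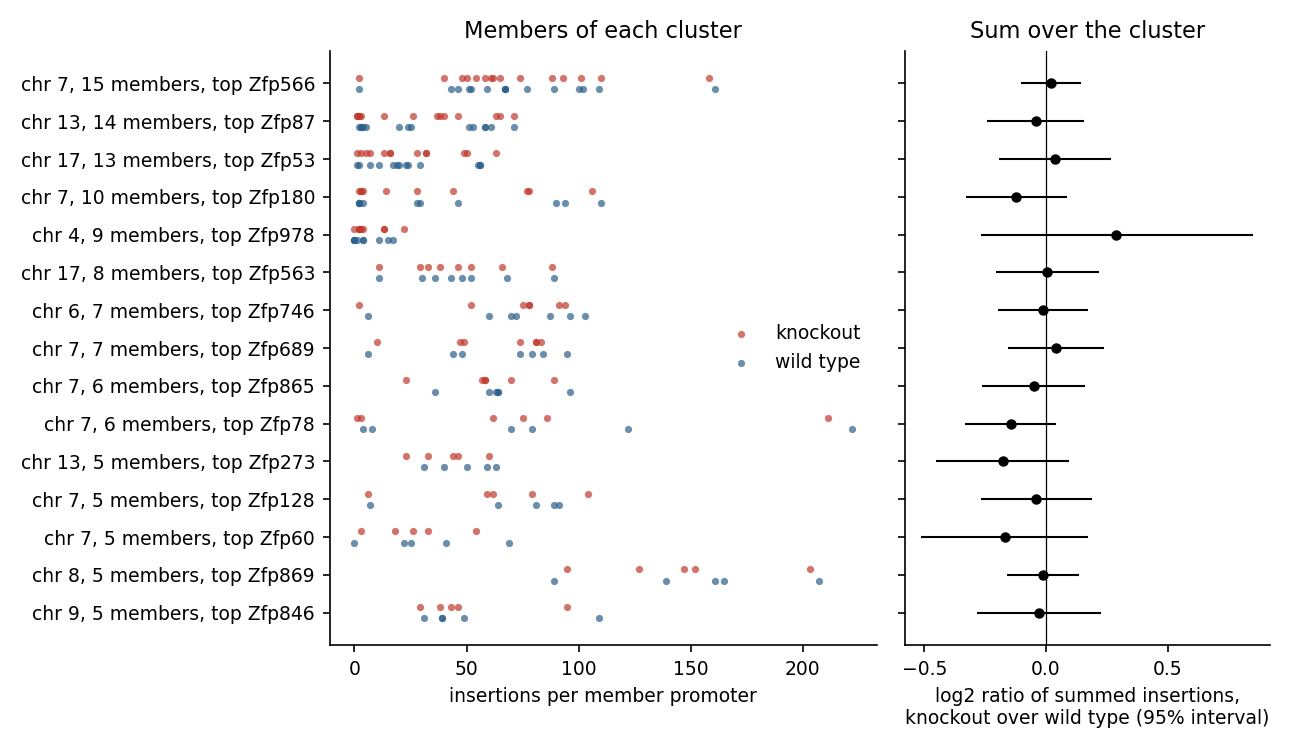
Left, insertions at the promoter of each member of the 15 clusters with at least 5 genes, knockout above wild type in each row; right, the log2 ratio of the summed insertions of each cluster, knockout over wild type, with its exact 95% interval. Members of a cluster spread widely, the chromosome 8 cluster is highest and the chromosome 4 cluster lowest, and all 15 intervals include 0.

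With insertions in open regions as scale, Zfp promoters as a group did not differ between the libraries by more than counting error. Summed over all 360, the log2 ratio was -0.0034 (-0.032 to 0.025). Other scalings gave lower values: -0.027 (-0.055 to 0.0017) with the sum over promoter windows, -0.029 (-0.058 to -0.00097) with a trimmed mean over promoters and -0.065 (-0.093 to -0.036) with all autosomal insertions, so the interval includes 0 under 2 of the 4. The clustered genes, with 9891 knockout and 10399 wild-type insertions, had -0.013 (-0.053 to 0.027), and the isolated genes, with 9520 and 9870, had 0.0070 (-0.034 to 0.048). All autosomal promoters together had 0.023 (0.019 to 0.027). Of the 166 Zfp promoters with at least 100 insertions, 77 (46.4%) lay above 0 and the median was -0.02, against 55.1% above 0 and a median of 0.02 for all 7364 such promoters. The spread of their log2 ratios was an SD of 0.21, against 0.19 for all. For 162 of the 166 the interval lay within 2-fold either way, and for 91 (54.8%) within 1.5-fold, against 62.1% of all. Counts of the libraries across the 360 members, on the log2 scale, had a Pearson r of 0.96, where the points share libraries and overlapping windows.

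No Zfp promoter with at least 100 insertions differed by 2-fold, as was the case for all promoters (0% of 7364 higher and 0% lower). At 1.5-fold, 1 of 166 was higher in the knockout library, against 0.53% of all promoters, and 0 of 166 were lower, against 0.217%. These shares are close to the background. The 1 promoter was that of Zfp184, an isolated gene on chromosome 13 (21944553 to 21945553), with 72 knockout and 46 wild-type insertions and a ratio of 0.70 (0.15 to 1.27). Counted 1000 bp either side of the gene end its ratio was 0.39 (-0.11 to 0.90). Next came Zfp316 with 97 and 72 (0.49, 0.034 to 0.95), Zfp90 with 156 and 117 (0.47, 0.12 to 0.83), Zfp287 with 110 and 83 (0.46, 0.041 to 0.89) and Zfp597 with 114 and 88 (0.43, 0.019 to 0.85). At the other end stood Zfp954 with 43 and 66 (-0.55, -1.15 to 0.017), Zfp207, whose product helps spindle assembly, with 48 and 69 (-0.46, -1.03 to 0.088), Zfp444 with 86 and 122 (-0.44, -0.86 to -0.035), Zfp939 with 50 and 71 (-0.44, -1.0 to 0.095) and Zfp949 with 44 and 61 (-0.41, -1.01 to 0.17). These 10 are the extremes with the same direction on both strands and were picked by their size, which their intervals do not allow for. Zfp712, named because it lies just under the limit of 100, had 37 and 61 (-0.65, -1.29 to -0.050). Lowering the limit to 50 insertions gave 2 higher and 5 lower Zfp promoters, where 1.2% and 1.03% of all 9065 promoters passed. The Zfp promoters at that limit are the 166 and an uncounted part of the 112 that held 20 to 99 insertions. No share of the Zfp promoters was worked out there, so these counts are not read against those percentages.

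**Figure D4:**
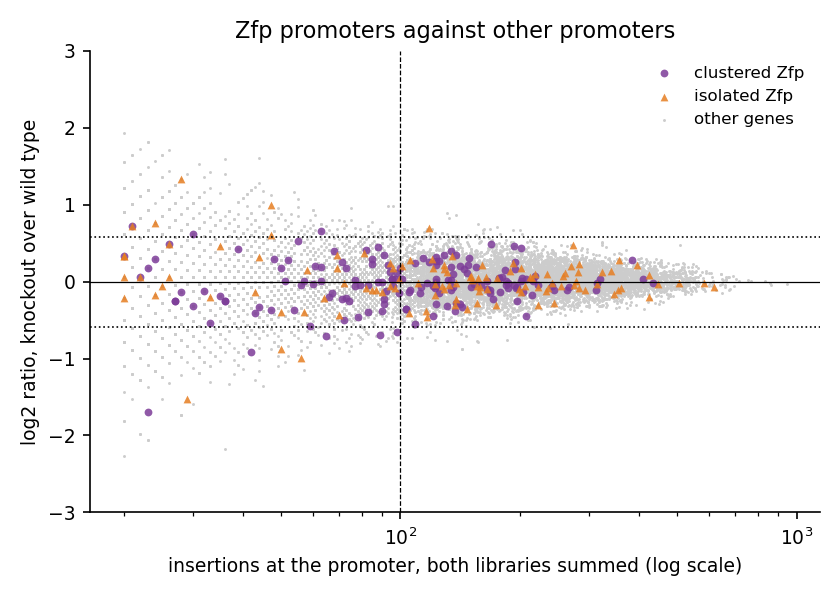
Log2 ratio (knockout over wild type) against the summed insertions (log scale) for Zfp promoters with at least 20 insertions and for all other genes in grey; dotted lines mark 1.5-fold and the dashed line 100 insertions. To the right of the dashed line a single Zfp promoter, Zfp184, lies outside the dotted lines, and the spread narrows as counts grow.

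None of the 15 clusters of at least 5 members stood apart. Their log2 ratio ran from -0.18 to 0.29, 5 were above 0, and every interval included 0. The largest cluster had 1064 knockout and 1092 wild-type insertions (0.022, -0.10 to 0.14), the chromosome 8 cluster 724 and 761 (-0.013, -0.16 to 0.14), and the highest ratio, in the chromosome 4 cluster, rested on 61 and 52 insertions. Of the smaller clusters, singled out after their values were seen, the 4 genes around Zfp954 on chromosome 7 had 145 knockout and 193 wild-type insertions (-0.35, -0.67 to -0.035). The pair Zfp668 and Zfp646 summed to 151 and 121 (0.38), but their windows lie 78 bp apart, so most insertions were counted for both. An interval on that sum would be too narrow and is not given. Zfp668 alone had 76 and 62. By chromosome, chromosome 7 had 5113 and 5442 insertions at its Zfp promoters (-0.031, -0.086 to 0.024), and chromosome 17 had 1626 and 1656 (0.033, -0.067 to 0.13).

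The genes can also be grouped by what their products are known to do. The 9 genes of RNA binding, RNA processing or the ribosome had medians of 82 knockout and 79 wild-type insertions, and 8 of the 9 held at least 100. Zfp622, a factor of ribosome subunit maturation, had 138 and 155, and Zfp598, a ubiquitin ligase that senses collided ribosomes, had 106 and 116. Zfp36, which speeds the decay of messenger RNA with AU-rich elements, was the lowest with 29 and 41. The summed ratio was -0.025 (-0.17 to 0.12). The 13 genes of general transcription and chromatin had medians of 102 and 107 and a summed ratio of 0.057 (-0.050 to 0.16), led by Zfp143 and Zfp687. Their lowest, Zfp217, had 2 and 1 at its gene end and 80 and 69 at a RefSeq start 22.6 kb away. In neither list was a promoter with at least 100 insertions past 1.5-fold.

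The 11 genes of neural development were more mixed, with medians of 20 knockout and 38 wild-type insertions and a summed ratio of -0.091 (-0.24 to 0.058). These medians fall on different genes, Zfp488 (20 and 15) for knockout and Zfp503 for wild type, so their gap is not a ratio between libraries. They also count Zfp335 at its gene end, where it held far fewer insertions than at its RefSeq start. Zfp24, needed for myelination by oligodendrocytes, had 207 and 177, and Zfp521, a regulator of early neural differentiation, had 122 and 132. Zfp462 was lowest with 4 and 10. Among members with few insertions some were lower in the knockout library: Zfp503, a factor of striatal development, had 18 and 38 (-1.0, -1.92 to -0.17), and Zfp335, needed by neural progenitors, had 17 and 33 (-0.88, -1.83 to -0.012). Zfp423, a gene of cerebellar development, had 7 and 22 (-1.53, -3.06 to -0.32). These were singled out after their values were seen. At RefSeq starts Zfp335 had 170 and 164 (0.11, -0.21 to 0.43) and Zfp423 had 8 and 12, while the start of Zfp503 is the counted end. In the same way Zfp219, of the chromatin list, had 20 and 8 at its gene end (1.33, 0.14 to 2.77) and 182 and 193 (-0.025, -0.33 to 0.27) at its RefSeq start. For Zfp335 and Zfp219 the gap in the first window was thus not seen where they hold most of their insertions.

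The 7 genes known to repress retroelements or guard imprinted loci had medians of 47 knockout and 48 wild-type insertions and a summed ratio of 0.0020 (-0.20 to 0.20). Zfp809, which silences murine leukaemia virus in embryonic cells, had 107 and 115, and Zfp568 had 101 and 102. Zfp445, which with Zfp57 keeps imprints, had 47 and 48, whereas Zfp57 had 3 and 2. The 4 genes of pluripotency, the early embryo or the germ line were the least accessible. Zfp42, the marker of naive pluripotency also called Rex1, had 2 and 1. Zfp541, of meiosis, had 15 and 9, and Zfp296, of embryonic stem cells, had 9 and 1. Their sum of 29 and 12 gave a ratio of 1.30 (0.32 to 2.44), and 3 of the 4 held fewer than 20 insertions. That sum takes Zfp541 at its gene end. At a RefSeq start 10070 bp away, Zfp541 had 3 and 0. Without Zfp296, left out after its values were seen, the other 3 summed to 20 and 11, a ratio of 0.89 (-0.21 to 2.13) whose interval includes 0. Zfp296 itself had -0.10 with a window of 1000 bp either side.

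Around the starts, clustered windows differed most from all windows in the share with the letters of the ZFP143 site. For the 239 members with a RefSeq start at the counted end, and for 11639 autosomal genes in all, the 300 bases from 250 before to 50 after the start were searched on both strands for 10 sets of letters: GGGCGG (GC box), CCGGAAG (ETS family), CCAAT (NF-Y), TGACGTCA (CREB family), TATAAA for the TATA box, TAATCC (Crx-type homeodomain), CACGTG (E box) and the longer sets of NRF1, YY1 and ZFP143. The ZFP143 set begins ACTACA and is shown in capitals in the sites printed with the clusters. It opens a longer site also known for THAP11. Matches of different sets may overlap, as 1 of the ZFP143 matches did. The ZFP143 letters stood in 38 of 147 clustered Zfp windows (25.9%), in 5 of 92 isolated Zfp windows (5.43%) and in 3.78% of all windows. CCAAT stood in 55.8% of clustered, 44.6% of isolated and 39.4% of all windows, and the ETS letters in 23.1%, 25% and 14.7%. The GC box stood in 39.5% of clustered, 55.4% of isolated and 54.8% of all windows. The TATA letters stood in 3.40%, 5.43% and 11.4%. The other sets were closer together: NRF1 matched 10.2% of clustered, 7.61% of isolated and 8.63% of all windows, YY1 4.08%, 7.61% and 2.74%, and the CREB letters 3.40%, 2.17% and 2.91%. The Crx-type letters, of interest in a retina rich in photoreceptors, stood in 8.84%, 4.35% and 5.94%, and the E box in 8.84%, 7.61% and 9.12%. A match describes letters and does not show that a factor binds, and no other set differed as much between clustered windows and all windows in relative terms.

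**Figure D5:**
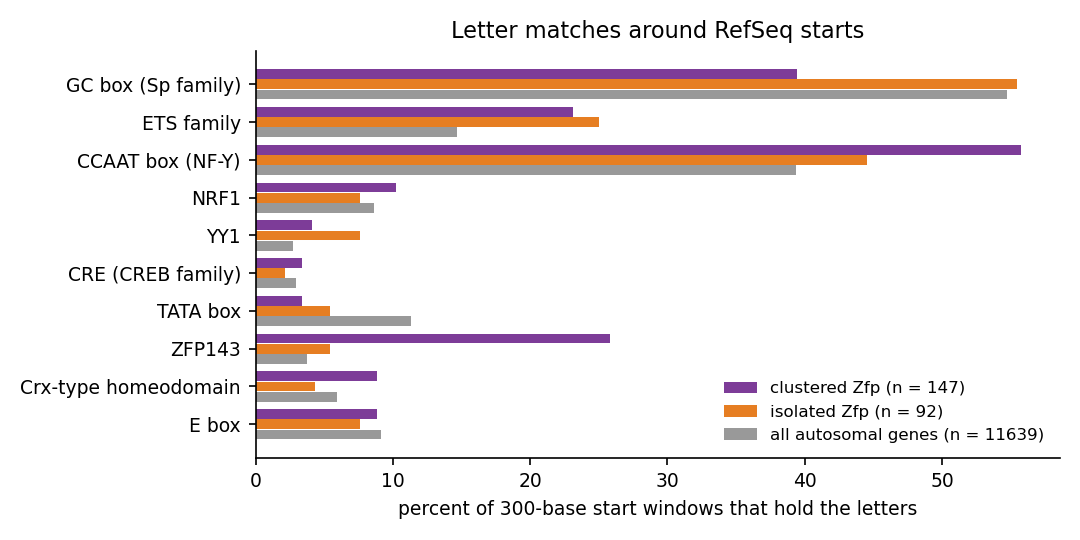
Percent of 300-base windows around RefSeq starts that hold each set of letters on either strand, for clustered Zfp genes, isolated Zfp genes and all autosomal genes. The ZFP143 letters stand in 25.9% of clustered Zfp windows, against 5.43% of isolated and 3.78% of all windows.

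The ZFP143 letters were concentrated in some clusters and missing from others. Of the members with a sequence, 9 of 13 held them in the largest cluster on chromosome 7, 5 of 5 in the 10-gene cluster of that chromosome, and 8 of 9 and 4 of 4 in the 2 largest clusters of chromosome 13. None of 9 and none of 7 held them in the 2 large clusters of chromosome 17, none of 5 in that of chromosome 8 and none of 3 in that of chromosome 4. Genes of other names within the spans of Zfp clusters held them in 4 of 23 windows (17.4%), and other genes of chromosome 7 in 4.53%. Printed on the strand that reads ACTACA, with the matched letters in capitals and 9 bases on either side, the sites of the largest chromosome 7 cluster follow.
Zfp84 (chr7:29768521-29768549, - strand): ttatagtggACTACATTTCCcagaaggcg
Zfp940 (chr7:29853665-29853693, + strand): aagtcttgaACTACATTTCCcaggagtcc
Zfp420 (chr7:29859911-29859939, + strand): agccattggACTACATTTCCcagagccac
Zfp383 (chr7:29908467-29908495, + strand): caatcgcggACTACATTTCCcagaagcgt
Zfp74 (chr7:29954096-29954124, + strand): ttgctttgaACTACATTTCCcagagccct
Zfp14 (chr7:30051391-30051419, - strand): ccaccatggACTACATTTCCcacaggcct
Zfp566 (chr7:30090567-30090595, - strand): ctcggactgACTACATTTCCcagagggct
Zfp260 (chr7:30095039-30095067, - strand): taactgtgaACTACATTTCCcagaagtct
Zfp146 (chr7:30169851-30169879, + strand): cgactttggACTACACTTCCcacaaggca
In the 14-gene cluster of chromosome 13 the sites read as follows.
Zfp712 (chr13:67061206-67061234, + strand): gcggacgagACTACATTTCCcacaattct
Zfp455 (chr13:67194442-67194470, - strand): gttgcttggACTACATATCCcagaagtct
Zfp457 (chr13:67306471-67306499, + strand): ggcgatgggACTACATTTCCcacaagtca
Zfp953 (chr13:67360627-67360655, + strand): ggcatccggACTACATTTCCcacaaatca
Zfp456 (chr13:67375812-67375840, + strand): gtggtgcggACTACATCTCCcagaagtct
Zfp429 (chr13:67399818-67399846, + strand): gcggtgcggACTACATCTCCcagaagtct
Zfp58 (chr13:67500533-67500561, + strand): agtggccagACTACAATTCCcacaagtct
Zfp748 (chr13:67553158-67553186, + strand): caacggaagACTACACTTCCcacaagtct
In all 17 of these sites the match is followed by cag or cac. Some sites outside these clusters read otherwise, such as those of Zfp94 (ggt), Zfp189 (cgg) and Zfp1 (cat). Over the 43 genes that held the letters there were 47 sites, 35 of them on the strand opposite to the gene and 35 starting within 100 bases before the start, with a median position of 55 bases before it.

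Of the 38 clustered windows with the ZFP143 letters all held an open region, and 24 (63.2%) held at least 100 insertions. Of the 109 clustered windows without them 86.2% held an open region, 49 (45.0%) held at least 100 insertions and 15 held under 20. The medians were 60.5 knockout and 60 wild-type insertions with the letters, against 46 and 48 without. Among all other genes the 397 windows with the letters had medians of 110 and 116, and the 11003 without had 40 and 42. Of these other genes, 97.0% with the letters and 64.1% without held an open region. At least 100 insertions were held by 85.9% and 46.9% of them. The ratio between libraries was -0.035 (-0.12 to 0.047) for clustered Zfp genes with the letters and -0.012 (-0.065 to 0.041) for those without, with overlapping intervals.

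Open Zfp promoters were poorer in CpG than other open promoters. Among windows with at least 100 insertions the median number of CpG dinucleotides in 300 bases was 14 for clustered Zfp genes, 17.5 for isolated Zfp genes and 24 for all genes, with G and C contents of 55.3%, 58.7% and 62.7%. Windows under 20 insertions even with any mapping quality had 6 in 12 clustered, 5 in 8 isolated and 3 in all genes, so within the set as elsewhere the open promoters held more CpG. Base composition also affects PCR and Tn5, and its part in these counts was not tested.

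Few Zfp promoters were shared with a neighbouring gene. Another protein-coding gene had an end within 1 kb of the counted end in 38 of 360 cases (10.6%), against 16.9% of all promoters, and in 11 of the 38 the nearest neighbour was another Zfp gene. Shared windows were more accessible, with medians of 75 knockout and 72.5 wild-type insertions at Zfp genes, against 41.5 and 44.5 at Zfp windows with no such neighbour. The windows of 5 pairs of members overlapped, so that their insertions were counted for both: Zfp944 and Zfp758, 2 bp apart, each had 12 and 15, and Zfp668 and Zfp646, 78 bp apart, had 76 and 75 knockout insertions against 62 and 59 wild-type insertions.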

How the data were processed

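ATAC-seq reads of 1 Gabra3 knockout and 1 wild-type retina were used. The submitters' processing notes name Trimmomatic 0.33, BWA, bedtools 2.23.0 and GRCm38 (mm10) without their roles. Each line of the deposited files is an aligned read of 75 bp: its coordinates, strand and, as a deposited score with no normalization, its mapping quality. Of 9038110 knockout reads 93.4%, and of 9170838 wild-type reads 93.6%, reached the quality of 10 used here. Insertions are the 5-prime ends of these reads, moved 4 bp (plus strand) or -5 bp (minus strand); a position and strand counted once, which dropped 9.41% of knockout and 11.0% of wild-type reads. The quality minimum removes reads of near-identical gene copies.

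Open regions (37049) came from the summed libraries: 200 bp windows every 50 bp whose Poisson p, given the genome mean or the mean of the 10000 bp around if that was larger, lay under 1e-05, joined across gaps of up to 150 bp. Ratios had a pseudocount of 0.5 and autosomal insertions in open regions as scale. Gene ends, starts and sequences came from RefSeq tables of GRCm38.p6; 301 of 360 members (83.6%) were in the promoter table. Python 3.11.15, NumPy 2.4.6, pandas 2.3.3, SciPy 1.17.1 and Matplotlib 3.10.9 were used, and the ratios, intervals and region calls were tested on simulated data. Named genes were the 8 with most insertions, the 5 highest and 5 lowest ratios with the same direction on both strands, the extremes of each role list and of the 3 largest clusters; others illustrate a count or were chosen after their values were seen. Members, lists and motif letters were chosen with earlier results of these data known.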

Additional observations from a re-analysis of the deposited data

How the results depend on the processing

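No paired analysis was possible because there is 1 library per genotype, and for the same reason no replicate could be left out. Over the alternative settings, 89 of 103 values of the main results stayed within their counting interval or, for counts of promoters and ratios of medians, within 1.5 times. The summed log2 ratios, whose main intervals include 0, lay on both sides of 0: from -0.065 to 0.017 for all Zfp promoters, from -0.075 to 0.014 for clustered and from -0.055 to 0.022 for isolated ones. Scaling to all autosomal insertions moved the log2 ratio to -0.065 for all Zfp promoters, -0.075 for clustered and -0.055 for isolated ones. The number of Zfp promoters past 1.5-fold was 1 higher and 0 lower. Those calls did not hold under several settings. There was 1 lower with all autosomal insertions or with a mapping quality of at least 30. Windows reaching 250 or 1000 bp to each side of the gene end gave 0 higher and 1 lower, and keeping all reads gave 2 higher and 1 lower. A minimum of 50 insertions gave 2 higher and 5 lower. The cause was not tested. Shares over all promoters were worked out only for the main setting and the minimum of 50, so the other counts have no background beside them. Chosen after seeing the data, leaving out the members whose low count rests on the gene end or on mapping quality raised the share of clustered promoters with an open region to 88.0%, by construction of that subset. The ratio of clustered to isolated medians ran from 0.729 (RefSeq starts) to 0.938, and that of Zfp to all promoters from 2.18 to 4.50. Of 334 values for single named genes or lists, 332 stayed within their interval. The 2 that did not were Zfp296, at -0.10 with windows of 1000 bp to each side and 0.063 with a mapping quality of at least 30. At under 20 insertions a 2-fold difference is not detectable at this depth.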

Other observations

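The bodies of Zfp genes, without the 1000 bp next to each end, were sparse in insertions. Over the 204 clustered genes long enough to measure, the median was 2.58 knockout and 2.69 wild-type insertions per kb, and over 146 isolated genes it was 3.58 and 3.57, against 3.88 and 3.77 for all genes. The Zbtb, Zscan and Zkscan genes, zinc finger genes with other symbols, had 4.59 and 4.54. Per length, clustered Zfp genes thus had open promoters and the lowest body level of these groups. Repeated sequence within the genes also lowers such a count, and its part was not tested.

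Between the promoters, the clusters were not empty. The spans of the 15 clusters with at least 5 members cover 4.77 Mb and held 60 open regions more than 1000 bp from every protein-coding gene end, or 12.6 per Mb, against 10.1 per Mb over all autosomes. Over the spans of all 50 clusters there were 82 in 8.34 Mb, or 9.83 per Mb, so the direction turned when the small clusters were added. In the spans of the 15 the insertion density was 4.18 (knockout) and 4.30 (wild type) per kb and in those of all 50 clusters 3.71 and 3.79, against 3.04 and 3.03 over all autosomes. The spans hold many genes, and RefSeq starts inside genes count here as away from gene ends.

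The 67 promoters of Zbtb, Zscan and Zkscan genes had medians of 56 knockout and 61 wild-type insertions and a summed log2 ratio of -0.0022 (-0.059 to 0.055). Of the 42 with a RefSeq start at the counted end, 2 (4.76%) held the ZFP143 letters.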
